A study of Homo sapiens with 12 samples.

Results

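The SOX-, FOX-, TBX-, PAX-, SIX-, LHX- and GATA-family genes code for developmental transcription factors, and their transcripts were followed in SK-UT-1 cells exposed to BET bromodomain inhibitors. The members were the gene symbols in which a SOX-, TBX-, PAX-, SIX-, LHX- or GATA-prefix is followed directly by a digit, or FOX by a letter and a digit. This gave 102 of the 22784 symbols with values, namely 16 SOX, 49 FOX, 11 TBX, 8 PAX, 8 LHX, 5 GATA and 5 SIX-family symbols, after 15 antisense and overlapping transcripts ending in -AS with a number or in -OT had been set aside. The rule also takes in FOXL2NB, which is the neighbour of FOXL2 and no forkhead factor, the noncoding transcript LHX1-DT and the pseudogene FOXO1B.

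The SK-UT-1 line was established from a human uterine leiomyosarcoma, a malignant tumour of smooth muscle. RNA sequencing was performed after 48 h with the DMSO vehicle, with 5 µM JQ1 or with 5 µM I-BET 762. Both compounds occupy the pockets by which BET proteins bind acetylated lysines on histones. The labels describe 4 libraries per group, and 3 DMSO, 4 JQ1 and 3 I-BET 762 libraries were analysed, while DMSO replicate 16 and I-BET 762 replicate 24 were not analysed here. All libraries came from this 1 cell line, and the labels do not say whether replicates were separate cultures, so the p-values measure the spread between these libraries, which may be technical.

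These factors bind DNA through a domain that names each family, such as the HMG box of SOX, the forkhead of FOX, the T-box of TBX and the paired domain of PAX proteins, while SIX-family and LHX proteins carry homeodomains and GATA proteins zinc fingers. In embryos they act in combinations that set the identity of tissues, including the mesoderm that gives rise to smooth muscle and the reproductive tract. Many are switched off in adult tissue, and tumour cells often transcribe a mixture of them. BET proteins sit on acetylated promoters and enhancers, where they help RNA polymerase II to start and elongate, and genes of cell identity are known for long acetylated enhancers.

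Libraries held 35564586 to 39658989 reads on genes, and a count of 0 allows up to 3 reads, or 2.73 to 3.30 normalized counts, for counting error only. Only symbols with 3 or more libraries at a normalized count of 10 or higher entered the test, which left 14839 symbols and 56 of the 102 members. Of these 56, 46 reached 10 in every library, while FOXN4 and SIX3 passed through the DMSO libraries alone and therefore had to be higher there, and SOX15 and LHX1 reached 10 in 0 DMSO libraries. The JQ1 libraries differed more among themselves than the others, the chi-square per gene between pairs of libraries running from 5.38 to 22.1, against 2.77 to 7.32 for DMSO and 3.34 to 5.21 for I-BET 762, and the 3 largest values all involved JQ1 replicate 18.

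The smooth muscle label was checked against its markers. DES, which codes for desmin, had 187 ± 0.57 normalized counts (SD, n = 3) in DMSO and TAGLN 1599 ± 46, whereas MYOCD and ACTG2 lay at 0.303 and 1.56, and the hormone receptors ESR1 and PGR at 0.954 and 0.308. MYH11 was not analysed here. By the call rule given further on, 6 of 8 tested smooth muscle markers fell with JQ1 and the same number with I-BET 762. Only SYNPO2 was called higher, and the 1 uncalled marker rose by less than 1.5-fold with each (limma adjusted p under 0.05). Over all tested symbols 22.8% were called lower with JQ1 and 17.9% with I-BET 762. The summed level of the smooth muscle list went from 20510–21140 in DMSO to 10670–11290 with JQ1 and 11840–12380 with I-BET 762. Of 5 tested uterine mesenchyme markers 4 fell with each inhibitor, among them HOXA10 (-3.06 and -2.94 log2) and HAND2 (-1.62 and -1.47). Of 6 tested epithelial markers 5 fell with each, among them KRT19, from 741 to 246 and 191 normalized counts. Leukocyte and endothelial markers summed to at most 4.55 and 7.40 in any library, with PTPRC and KDR at 0 in DMSO. The part of these marker changes in the results below was not tested, and in bulk RNA fewer cells of a kind and less RNA per cell cannot be told apart.

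Upstream sequence was available from RefSeq (GRCh38.p14) for 39 of the 56 tested members, and the 250 bases before the listed start are shown for 6 of them as examples. Members with larger changes than some of these, such as FOXN4 and LHX6, also had windows. FOXF2 (chr6:1389326-1389575, plus strand), SIX2 (chr2:45009453-45009702, minus strand) and PAX8 (chr2:113278922-113279171, minus strand) fell with both inhibitors, FOXO1 (chr13:40666642-40666891, minus strand) and TBX21 (chr17:47732986-47733235, plus strand) rose with both, and SOX4 (chr6:21593501-21593750, plus strand) was the most abundant member per length. Capitals mark the TATA box TATAAA, the CCAAT box, the GC box GGGCGG and TTTGAA, the core of the cell cycle homology element, wherever they occur on either strand, with the written strand running 5′ to 3′ towards the gene.
FOXF2: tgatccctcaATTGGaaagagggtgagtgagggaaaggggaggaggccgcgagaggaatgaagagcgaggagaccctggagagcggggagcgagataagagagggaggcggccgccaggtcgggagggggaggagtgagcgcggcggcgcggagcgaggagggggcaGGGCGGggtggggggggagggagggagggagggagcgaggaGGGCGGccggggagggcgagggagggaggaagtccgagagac
SIX2: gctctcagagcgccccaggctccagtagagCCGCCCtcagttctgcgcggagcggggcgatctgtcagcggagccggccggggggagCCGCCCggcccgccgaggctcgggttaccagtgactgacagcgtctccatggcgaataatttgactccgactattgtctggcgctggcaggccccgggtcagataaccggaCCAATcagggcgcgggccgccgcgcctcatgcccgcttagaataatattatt
PAX8: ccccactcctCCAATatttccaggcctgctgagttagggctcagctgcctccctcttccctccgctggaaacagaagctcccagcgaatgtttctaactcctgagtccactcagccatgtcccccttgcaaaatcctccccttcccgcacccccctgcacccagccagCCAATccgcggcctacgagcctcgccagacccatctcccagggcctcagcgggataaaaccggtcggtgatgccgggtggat
FOXO1: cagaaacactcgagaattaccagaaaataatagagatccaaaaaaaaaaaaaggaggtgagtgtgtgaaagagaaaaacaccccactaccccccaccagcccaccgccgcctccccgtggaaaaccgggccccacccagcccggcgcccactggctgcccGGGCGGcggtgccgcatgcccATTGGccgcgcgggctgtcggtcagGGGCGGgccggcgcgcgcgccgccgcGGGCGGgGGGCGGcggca
TBX21: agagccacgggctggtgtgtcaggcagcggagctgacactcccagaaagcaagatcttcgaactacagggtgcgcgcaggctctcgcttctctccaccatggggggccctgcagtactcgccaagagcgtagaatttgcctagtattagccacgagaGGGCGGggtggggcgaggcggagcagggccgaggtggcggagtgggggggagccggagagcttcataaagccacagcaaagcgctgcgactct
SOX4: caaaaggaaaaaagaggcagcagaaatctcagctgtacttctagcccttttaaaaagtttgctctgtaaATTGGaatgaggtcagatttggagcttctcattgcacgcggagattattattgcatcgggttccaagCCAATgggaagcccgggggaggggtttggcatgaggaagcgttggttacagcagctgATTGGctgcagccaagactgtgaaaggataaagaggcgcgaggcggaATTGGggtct

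FOXF2, SIX2 and FOXO1 had 20, 26 and 27 CpG dinucleotides in their windows, TBX21 had 17, PAX8 11 and SOX4 8. SOX4 held 4 CCAAT boxes and FOXO1 4 GC boxes. Over the 39 members the median was 21 CpG, the same as over the 11244 tested symbols with a window, while all 27305 windows of the table had a median of 11. TATAAA occurred in 2.56% of the member windows (1 of 39, FOXA3) against 5.34% of the windows of tested symbols, CCAAT in 35.9% against 34.9%, the GC box in 64.1% against 67.5% and TTTGAA in 15.4% against 8.34%. A match is only a run of letters and says nothing of binding. FOXL2 and FOXL2NB are read away from each other from starts 80 bases apart, and their windows share 79 bases.

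In DMSO the factors spanned more than 3 orders of magnitude when normalized counts were divided by exon length. SOX4, a SOXC factor of progenitor cells, led with a level of 1051 normalized counts per kilobase, followed by FOXM1, the forkhead activator of mitotic genes, at 758. The other families were led by SIX4 (238), TBX3 (121), LHX2 (94.4), PAX3 (87.9) and GATA2 (65). The top of the forkhead family held mostly factors found in many cell types, with FOXN2 at 609, FOXO3 at 409, FOXK2 at 347 and FOXJ3 at 300.1, together with FOXP2 at 299. The lowest tested levels per kilobase were those of LHX1 (0.508) and SOX6 (0.555). Summed over a family, normalized counts were 6716–7070 in DMSO, 9502–10570 with JQ1 and 8997–9308 with I-BET 762 for SOX, and 26870–27800, 21620–23050 and 22850–23210 for FOX. These sums follow the abundant members, so that of SOX was mostly SOX4. With JQ1 the level of FOXM1 per kilobase was 247 and that of SOX4 1687, and with I-BET 762 they were 382 and 1465.

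**Figure D1:**
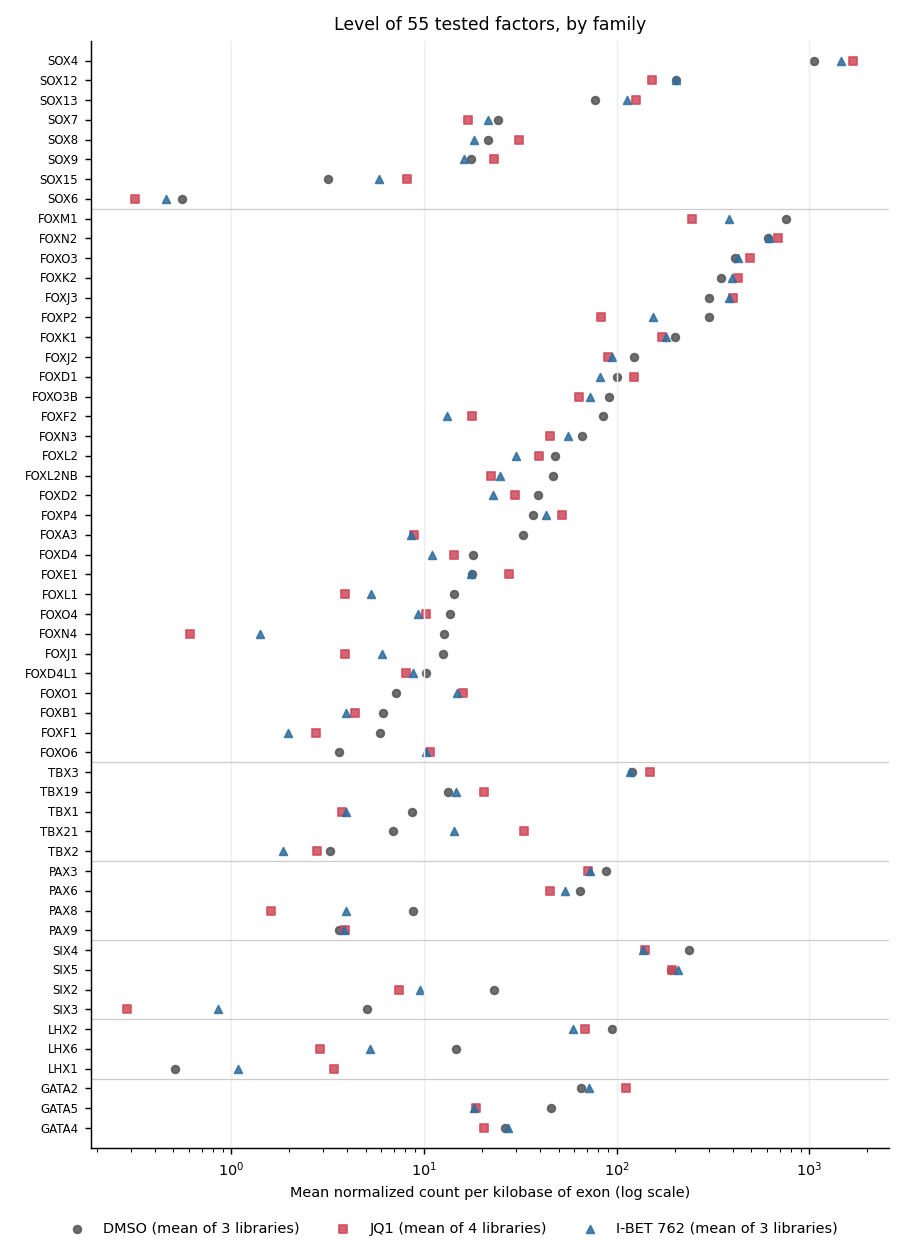
Mean normalized count per kilobase of exon (log scale) for 55 of the 56 tested factors, grouped by family and ordered by the DMSO level, with DMSO as circles, JQ1 as squares and I-BET 762 as triangles. SOX4 is highest in all 3 groups, and FOXM1 moves from 758 in DMSO to 247 with JQ1 and 382 with I-BET 762.

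Normalized counts are reads scaled between libraries, and the limma model compared them on the log2(normalized count + 1) scale, on which all fold changes below are given, with the JQ1 value before the I-BET 762 value where a pair is printed. A change was called at an adjusted p under 0.05 and a fold change over 1.5, which is 0.585 on the log2 scale. With JQ1, 10 of the 56 tested members were called higher and 15 lower, where 13.3% and 22.8% of all tested symbols were called. With I-BET 762, 3 were called higher and 20 lower, against 8.96% and 17.9% of all tested symbols. As shares these are 17.9% and 26.8% of the members with JQ1 and 5.36% and 35.7% with I-BET 762. The median log2 fold change of the members was -0.41 with JQ1 and -0.29 with I-BET 762, beside medians of 0.008 and -0.001 over all tested symbols. When libraries were instead scaled to equal totals, the JQ1 calls among members split into 6 higher and 26 lower (81.2% lower against 60.0%), and those among all tested symbols were 77.5% lower against 63.1%. That scaling moved the median of all tested symbols from 0.008 to -0.175 for JQ1, a shift of -0.183, and from -0.001 to -0.097 for I-BET 762, a shift of -0.096.

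Both inhibitors are compared with the same 3 DMSO libraries, so their lists are not independent. The members called in the same direction with both were 3 higher (FOXO1, FOXO6 and TBX21) and 15 lower (FOXA3, FOXF2, FOXJ1, FOXL1, FOXL2NB, FOXM1, FOXN4, FOXP2, TBX1, PAX8, SIX2, SIX3, SIX4, LHX6 and GATA5), and 0 were called in opposite directions. Over all tested symbols 7.86% were called higher and 16.7% lower with both. Among the higher members, FOXO6 reached 10 in 1 DMSO library and entered the test mainly through the treated libraries. Among the lower members, FOXN4 and SIX3 had passed the filter through the DMSO libraries alone, so a fall was the only direction open to them. With JQ1 but not I-BET 762, 7 were called, all higher, namely SOX4, SOX13, SOX15, FOXE1, TBX19, LHX1 and GATA2, where 5.48% of all tested symbols were called so. Among these, SOX15 and LHX1 reached 10 in 0 DMSO libraries and entered the test mainly through the JQ1 libraries, so the filter favoured a rise. With I-BET 762 but not JQ1, 5 were called, all lower, among them FOXD2, FOXF1, FOXL2 and LHX2, where 1.21% of all tested symbols were called so. Being called with only 1 inhibitor does not show a difference between them, which the direct comparison further on addresses.

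**Figure D2:**
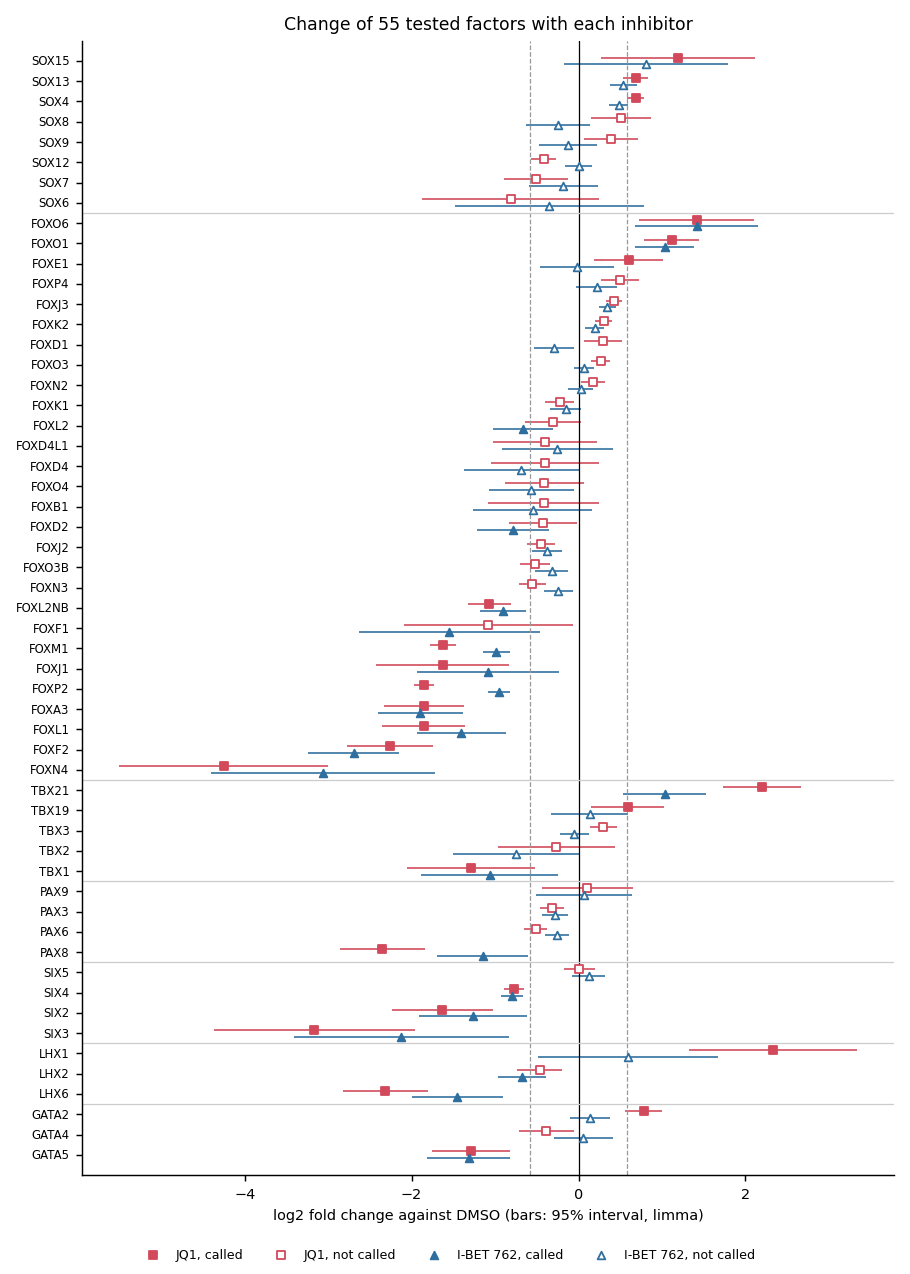
log2 fold change against DMSO of 55 of the 56 tested factors with JQ1 (squares) and I-BET 762 (triangles), with 95% intervals from limma, by family. Filled symbols were called, and dashed lines mark 1.5-fold. FOXN4 lies lowest at -4.25 with JQ1, and LHX1 (2.34) and TBX21 (2.2) lie highest. FOXN4 passed the filter through the DMSO libraries alone, and LHX1 reached a normalized count of 10 in 0 of them.

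Among forkhead factors of mesenchyme and gut, several fell several-fold with both compounds. FOXF2, which patterns the mesenchyme around the gut and palate, had 180.1, 214 and 227 in the DMSO libraries, 51.6, 28.3, 47 and 46.7 with JQ1 and 36.4, 20.1 and 40.4 with I-BET 762. All treated libraries lay far under the lowest DMSO library, a fall of 4.78-fold with JQ1 (log2 fold change -2.26, SE 0.24, adjusted p = 4.52e-07) and 6.49-fold with I-BET 762 (log2 fold change -2.7, SE 0.26, adjusted p = 2.42e-07). FOXL1, another factor of gut mesenchyme, had 77.5, 66.6 and 71.9 in the DMSO libraries, 22, 13.1, 19 and 24.3 with JQ1 and 21.6, 28.1 and 30.5 with I-BET 762. It fell 3.62-fold and 2.65-fold (log2 fold change -1.86, SE 0.23, adjusted p = 2.86e-06, and log2 fold change -1.41, SE 0.25, adjusted p = 0.000157), with no overlap between treated and DMSO libraries. FOXF1, which lies beside FOXL1 on chromosome 16 with starts 65.8 kb apart, lay at 12.7–28.1 in DMSO, 4.06–15 with JQ1 and 2.95–12 with I-BET 762. It fell with I-BET 762 (log2 fold change -1.55, SE 0.51, adjusted p = 0.0153) and was not called with JQ1 (log2 fold change -1.08, SE 0.48, adjusted p = 0.0521), and the I-BET 762 call did not hold once DMSO replicate 13 (-1.30, adjusted p = 0.0688) or I-BET 762 replicate 21 (-1.13, adjusted p = 0.0827) was left out. FOXC2, between them, stayed under the filter, as did FOXQ1 and FOXC1 beside FOXF2.

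FOXA3, a pioneer factor of liver and gut, had 69.7, 71.2 and 68.2 in the DMSO libraries, 19.8, 16.3, 15 and 24.3 with JQ1 and 19.7, 15 and 19.7 with I-BET 762. It fell to nearly the same level with both compounds (log2 fold change -1.85, SE 0.23, adjusted p = 1.94e-06, and log2 fold change -1.9, SE 0.24, adjusted p = 5.43e-06). FOXN4, a factor of retinal and spinal progenitors, had 48.4, 35.1 and 51 in the DMSO libraries, 1.1, 6.53, 0 and 1.01 with JQ1 and 1.97, 5.01 and 7.88 with I-BET 762. The treated libraries held at most 7.88 normalized counts and all DMSO libraries over 35 (log2 fold change -4.25, SE 0.59, adjusted p = 8.11e-06, and log2 fold change -3.06, SE 0.63, adjusted p = 0.000562), and since the treated counts are this low the fitted fold depends on the pseudocount. FOXN4 passed the filter through the DMSO libraries alone, so its direction was fixed beforehand and these p-values add no separate support for a fall. FOXJ1, the regulator of motile cilia, had 26.1, 26.8 and 44.6 in the DMSO libraries, 12.1, 10.9, 12 and 5.07 with JQ1 and 9.84, 25.1 and 11.8 with I-BET 762. It fell with both (log2 fold change -1.63, SE 0.38, adjusted p = 0.00106, and log2 fold change -1.08, SE 0.40, adjusted p = 0.0283), but I-BET 762 replicate 22 nearly reached the DMSO libraries, and the I-BET 762 call was lost without DMSO replicate 15 (-0.84, adjusted p = 0.13), I-BET 762 replicate 21 (-0.83, adjusted p = 0.122) or I-BET 762 replicate 23 (-0.95, adjusted p = 0.0919).

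FOXP2, a repressor known from speech and lung development, and FOXM1 were the most abundant members that fell. FOXP2 had 4961, 5016 and 4870 in the DMSO libraries, 1328, 1516, 1315 and 1340 with JQ1 and 2550, 2445 and 2681 with I-BET 762. The 3 groups did not overlap, and the order was DMSO, then I-BET 762, then JQ1 (log2 fold change -1.85, SE 0.06, adjusted p = 1.89e-13, and log2 fold change -0.95, SE 0.06, adjusted p = 2.18e-09). FOXM1 had 3914, 3569 and 3702 in the DMSO libraries, 1075, 1134, 1286 and 1367 with JQ1 and 1947, 1842 and 1854 with I-BET 762. It showed the same order without overlap, a fall of 3.08-fold with JQ1 (log2 fold change -1.62, SE 0.07, adjusted p = 1.50e-11) and 1.98-fold with I-BET 762 (log2 fold change -0.99, SE 0.08, adjusted p = 2.59e-08).

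FOXL2, the ovarian granulosa cell factor, and its neighbour FOXL2NB are transcribed away from each other from nearby starts. FOXL2NB lay at 210.2–262 in DMSO, 97.9–126 with JQ1 and 125–129 with I-BET 762 and fell with both (log2 fold change -1.07, SE 0.12, adjusted p = 8.34e-07, and log2 fold change -0.91, SE 0.13, adjusted p = 1.79e-05). FOXL2 fell with I-BET 762 (log2 fold change -0.67, SE 0.17, adjusted p = 0.00314) and was not called with JQ1 (log2 fold change -0.31, SE 0.16, adjusted p = 0.0957), where its 4 libraries lay at 91.3–156 beside a DMSO range of 132–146. FOXD2, a factor of mesoderm and kidney stroma, likewise fell with I-BET 762 (log2 fold change -0.79, SE 0.20, adjusted p = 0.00346) and was not called with JQ1 (log2 fold change -0.42, SE 0.19, adjusted p = 0.0592), where replicate 17 stood at 109 normalized counts and replicates 18 to 20 at 66.4, 70 and 68. With equal totals FOXD2 (-0.60) and FOXF1 (-1.26) were called lower with JQ1 as well, and FOXF1 was so in 10 of the alternatives, limma-voom among them.

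The FOXO factors, which act downstream of insulin signalling and drive arrest, stress and autophagy genes, divided. FOXO6 had 6.78, 11.1 and 9.1 in the DMSO libraries, 31.9, 14.1, 38 and 23.3 with JQ1 and 20.7, 28.1 and 27.6 with I-BET 762. It rose with both (log2 fold change 1.42, SE 0.32, adjusted p = 0.00101, and log2 fold change 1.41, SE 0.35, adjusted p = 0.00227), with no treated library as low as the highest DMSO library. FOXO6 reached 10 in 1 DMSO, 4 JQ1 and 3 I-BET 762 libraries. It thus entered the test mainly through the treated groups where it was high, and its p-values add no separate support for a rise. FOXO1 lay at 40.7–44.6 in DMSO, 78–111 with JQ1 and 79.7–94.5 with I-BET 762, a rise of 2.17-fold and 2.05-fold (log2 fold change 1.12, SE 0.15, adjusted p = 8.19e-06, and log2 fold change 1.03, SE 0.17, adjusted p = 5.72e-05). FOXO3, the most abundant of them, and FOXO4 were not called, with log2 fold changes of 0.27 and -0.41 with JQ1 and 0.07 and -0.57 with I-BET 762, although equal totals brought FOXO4 past the threshold as lower (-0.59 and -0.66). FOXO3B is a near copy of FOXO3 on chromosome 17, so that reads may be split between them, and its values of -0.52 and -0.32 are uncertain, as are those of FOXD4 and FOXD4L1 within the FOXD4 copies. FOXE1, the thyroid forkhead factor, rose with JQ1 just past the threshold (log2 fold change 0.60, SE 0.20, adjusted p = 0.0121), with 118, 68.5, 120.1 and 81.1 normalized counts against 58.1, 56.4 and 71.9 in DMSO. JQ1 replicate 18 lay within the DMSO range, and the call was lost in several of the alternatives, among them without DMSO replicate 13 (0.56), DMSO replicate 14 (0.54), JQ1 replicate 17 (0.49) or JQ1 replicate 19 (0.48).

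**Figure D3:**
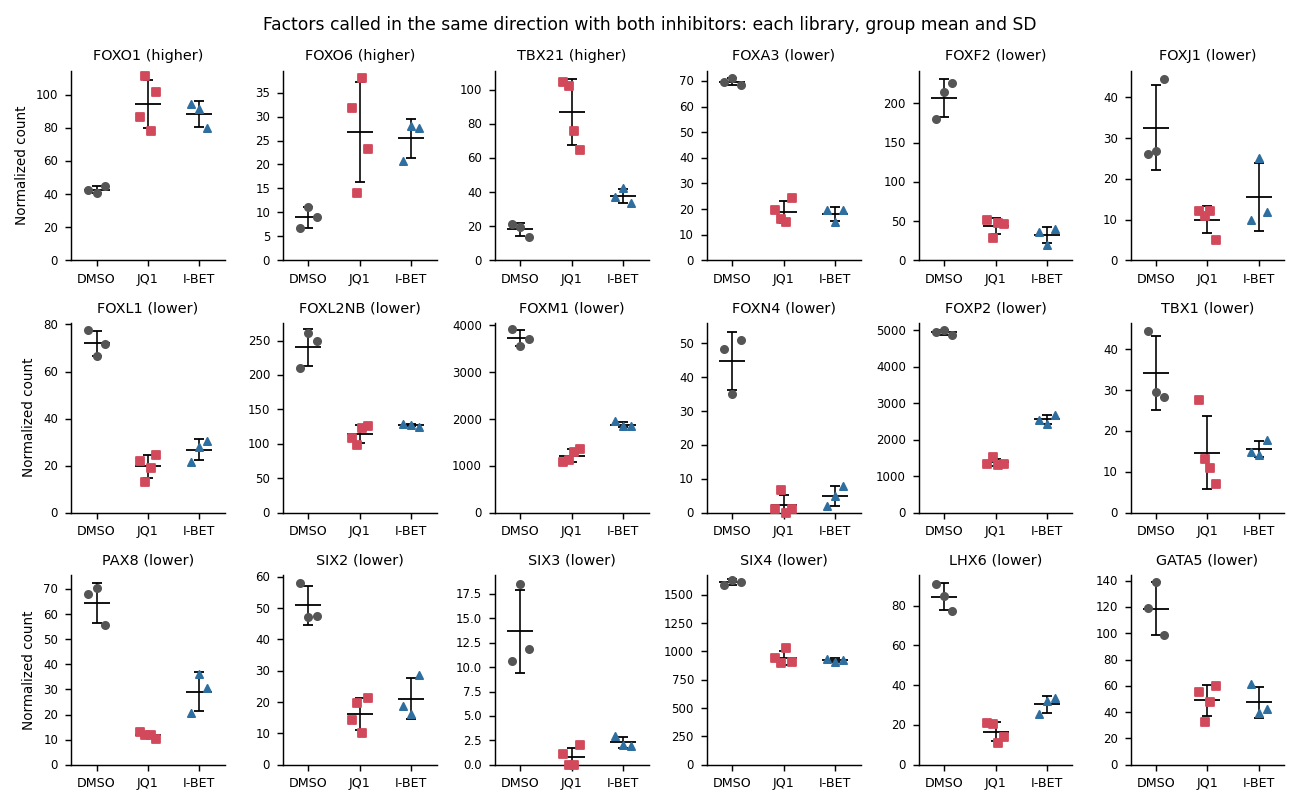
Normalized count in each library for the 18 factors called in the same direction with both inhibitors, on linear axes from 0, with the group mean and SD as black bars (SD bars are clipped at 0). The 3 factors that rose come before the 15 that fell, and FOXP2 steps from 4870–5016 in DMSO down to 2445–2681 with I-BET 762 and 1315–1516 with JQ1.

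Of the SIX-family genes, SIX2, SIX3 and SIX4 fell with both inhibitors. SIX-family proteins are homeodomain factors of muscle, kidney and sensory organ precursors that work with EYA phosphatases and DACH corepressors. SIX4, the most abundant per length, had 1586, 1634 and 1617 in the DMSO libraries, 945, 899, 1030 and 905 with JQ1 and 938, 909 and 926 with I-BET 762. Its treated libraries lay together at about the same level with both compounds, 1.71-fold and 1.74-fold under DMSO (log2 fold change -0.77, SE 0.06, adjusted p = 6.96e-09, and log2 fold change -0.80, SE 0.06, adjusted p = 2.30e-08).

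SIX2, which maintains kidney progenitors, had 58.1, 47.1 and 47.3 in the DMSO libraries, 14.3, 19.6, 10 and 21.3 with JQ1 and 18.7, 16 and 28.6 with I-BET 762, and fell with both (log2 fold change -1.63, SE 0.28, adjusted p = 8.81e-05, and log2 fold change -1.26, SE 0.30, adjusted p = 0.00199). SIX3, the forebrain and eye factor whose start lies 67.8 kb from that of SIX2 on chromosome 2, had 10.7, 18.5 and 11.8 in the DMSO libraries, 1.1, 0, 0 and 2.03 with JQ1 and 2.95, 2.0 and 1.97 with I-BET 762. It fell in both comparisons (log2 fold change -3.17, SE 0.57, adjusted p = 0.000111, and log2 fold change -2.12, SE 0.61, adjusted p = 0.00652), at the edge of detection. From its 3 reads over the JQ1 libraries against 44 over the DMSO libraries the fall was 17.4-fold, with an exact 95% interval of 5.58 to 87.7 that covers counting error only. SIX3 passed the filter through the DMSO libraries alone, so its direction was fixed beforehand. Neither its p-values nor this interval add separate support for a fall. SIX5 was not called, at 0.01 and 0.12 log2.

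Of the SIX-family partners, DACH1 fell from 1984 ± 119 normalized counts (SD, n = 3) to 648 with JQ1 and 846 with I-BET 762 (log2 fold change -1.61, SE 0.07, adjusted p = 6.78e-12, and log2 fold change -1.23, SE 0.07, adjusted p = 9.82e-10). EYA2 and EYA3 were tested and not called, at -0.20 and 0.16 with JQ1 and 0.15 and 0.25 with I-BET 762, and EYA1, EYA4 and DACH2 stayed under the filter.

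Of 5 tested T-box factors, TBX21 rose and TBX1 fell with both compounds. TBX21, best known as T-bet of T helper cells, had 21.3, 19.4 and 13.7 in the DMSO libraries, 104, 102, 76 and 64.9 with JQ1 and 37.4, 42.1 and 33.5 with I-BET 762. The 3 groups did not overlap, at 4.58-fold of DMSO with JQ1 (log2 fold change 2.2, SE 0.22, adjusted p = 2.08e-07) and 2.04-fold with I-BET 762 (log2 fold change 1.03, SE 0.24, adjusted p = 0.00132), in a line where the leukocyte marker PTPRC stayed at or near 0. TBX1, a factor of the pharyngeal arches and heart, had 44.5, 29.6 and 28.2 in the DMSO libraries, 27.5, 13.1, 11 and 7.1 with JQ1 and 14.8, 14 and 17.7 with I-BET 762. Its highest treated library, JQ1 replicate 17, came just under the lowest DMSO library (log2 fold change -1.29, SE 0.36, adjusted p = 0.00443, and log2 fold change -1.07, SE 0.39, adjusted p = 0.025), and the I-BET 762 call was lost without DMSO replicate 13 (-0.86, adjusted p = 0.106), I-BET 762 replicate 21 (-1.04, adjusted p = 0.0623) or I-BET 762 replicate 22 (-1.0, adjusted p = 0.0682). TBX19, the pituitary T-box factor, lay just inside the fold threshold with JQ1 (log2 fold change 0.59, SE 0.20, adjusted p = 0.0172), its groups overlapped (44.6–63 in DMSO and 56–102 with JQ1), and without DMSO replicate 14 (0.51), DMSO replicate 15 (0.50), JQ1 replicate 18 (0.55) or JQ1 replicate 20 (0.45) it was not called. TBX3, a limb and breast factor that represses senescence genes and the most abundant T-box factor here, had 736, 707 and 713 in the DMSO libraries, 982, 775, 878 and 905 with JQ1 and 646, 719 and 722 with I-BET 762. It was not called (log2 fold change 0.30, SE 0.08, adjusted p = 0.00269, and log2 fold change -0.05, SE 0.08, adjusted p = 0.623), and neither was TBX2.

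PAX8, the paired-box factor of thyroid, kidney and the Müllerian tract, was the only 1 of 4 tested PAX genes to be called, except that PAX6 was called lower with JQ1 with equal totals (-0.70). PAX8 had 67.8, 70.3 and 55.5 in the DMSO libraries, 13.2, 12, 12 and 10.1 with JQ1 and 20.7, 36.1 and 30.5 with I-BET 762. The 3 groups did not overlap, and the fall was 5.1-fold with JQ1 (log2 fold change -2.35, SE 0.24, adjusted p = 2.32e-07) and 2.22-fold with I-BET 762 (log2 fold change -1.15, SE 0.25, adjusted p = 0.00103). PAX8-AS1, which overlaps the PAX8 gene on the other strand, fell alongside (-2.16 and -2.01 log2), and since the strand setting of the counting is not given in the sources used here, reads of the pair cannot be told apart. PAX3, a factor of neural crest and muscle precursors and the most abundant PAX gene, had 718, 703 and 674 in the DMSO libraries, 552, 526, 556 and 606 with JQ1 and 565, 557 and 599.5 with I-BET 762. All its treated libraries lay under the DMSO libraries, and PAX3 and the eye factor PAX6 stood short of the fold threshold at -0.32 and -0.52 with JQ1 and -0.28 and -0.26 with I-BET 762, and PAX9 at 0.11 and 0.07.

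The 3 tested LIM homeodomain genes, which act through the adaptor LDB1, went different ways. LHX6, a factor of interneurons and the jaw, had 91, 85 and 77.3 in the DMSO libraries, 20.9, 20.7, 11 and 14.2 with JQ1 and 25.6, 32.1 and 33.5 with I-BET 762. It fell with both without overlap (log2 fold change -2.31, SE 0.24, adjusted p = 2.95e-07, and log2 fold change -1.45, SE 0.26, adjusted p = 0.000142). LHX1, a head and kidney organizer gene, had 2.91, 1.85 and 2.73 in the DMSO libraries, 13.2, 17.4, 15 and 21.3 with JQ1 and 1.97, 11 and 2.95 with I-BET 762. All JQ1 libraries lay above every other library (log2 fold change 2.34, SE 0.47, adjusted p = 0.000359), and of the I-BET 762 libraries replicate 22 alone came near them (log2 fold change 0.59, SE 0.51, adjusted p = 0.331). LHX1 reached 10 in 4 JQ1, 1 I-BET 762 and 0 DMSO libraries. It thus entered the test mainly through the group where it was high, and the JQ1 p-value adds no separate support for a rise. LHX2, the most abundant per length and known from forebrain and hair follicle, had 209, 247 and 251 in the DMSO libraries, 186, 147, 196 and 155 with JQ1 and 152, 131 and 158 with I-BET 762. It fell with I-BET 762 (log2 fold change -0.68, SE 0.13, adjusted p = 0.000402) and was not called with JQ1 (log2 fold change -0.47, SE 0.13, adjusted p = 0.0034), where equal totals gave a call (-0.65).

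Of 3 tested GATA factors, GATA5 fell with both compounds and GATA2 rose with JQ1. GATA5, a factor of endoderm and heart, had 119, 139 and 98.3 in the DMSO libraries, 54.9, 32.6, 48 and 59.8 with JQ1 and 61, 39.1 and 42.3 with I-BET 762, and fell to the same range with both (log2 fold change -1.28, SE 0.22, adjusted p = 7.12e-05, and log2 fold change -1.32, SE 0.23, adjusted p = 0.000159). GATA2, the blood stem cell and uterine stromal factor, had 332, 329 and 298 in the DMSO libraries, 596, 472, 575 and 559 with JQ1 and 332, 314 and 417 with I-BET 762. It rose with JQ1 (log2 fold change 0.78, SE 0.10, adjusted p = 5.98e-06), where all 4 libraries exceeded all others, and was not called with I-BET 762 (log2 fold change 0.14, SE 0.11, adjusted p = 0.301). GATA4 was not called with either, at -0.38 and 0.05.

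The LDB1 adaptor shared by LHX and GATA complexes was not called (-0.38 with JQ1 and -0.34 with I-BET 762). Of the LIM-only proteins that bind it, LMO2 rose from 22.7 ± 4.6 (SD, n = 3) to 72.2 and 50.3 normalized counts (log2 fold change 1.64, SE 0.21, adjusted p = 3.54e-06, and log2 fold change 1.1, SE 0.23, adjusted p = 0.000552) and LMO4 fell (log2 fold change -0.67, SE 0.06, adjusted p = 3.79e-08, and log2 fold change -0.88, SE 0.06, adjusted p = 8.31e-09), while LDB2, LMO1 and LMO3 stayed under the filter. ZFPM1, the GATA partner also called FOG1, was not called (0.57 and 0.34), and ZFPM2 was not tested.

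In the SOX family 0 of 8 tested members were called lower than DMSO, beside 22.8% of all tested symbols with JQ1 and 17.9% with I-BET 762. With equal totals SOX7 (-0.69) and SOX12 (-0.60) were called lower with JQ1. The most abundant SOX member was SOX4, which had 4880, 5164 and 5304 in the DMSO libraries, 8647, 7743, 8378 and 8089 with JQ1 and 7052, 7062 and 7288 with I-BET 762. The 3 groups did not overlap. SOX4 passed the fold threshold with JQ1 (log2 fold change 0.68, SE 0.05, adjusted p = 3.22e-09) and stayed under it with I-BET 762 (log2 fold change 0.48, SE 0.05, adjusted p = 8.42e-07). SOX13, a SOXD factor, changed by a like amount, with 867, 882, 941 and 1021 with JQ1 against 599.5, 576 and 551 in DMSO (log2 fold change 0.69, SE 0.07, adjusted p = 2.57e-07) and a value under the threshold with I-BET 762 (log2 fold change 0.54, SE 0.07, adjusted p = 1.46e-05). With equal totals both genes fell short of 1.5-fold with JQ1, at 0.50 each. SOX15, the sole SOXG gene, rose on few reads, with 2.91–7.28 in DMSO and 5.44–16 with JQ1 (log2 fold change 1.19, SE 0.43, adjusted p = 0.022), with JQ1 replicate 18 inside the DMSO range, and the call was not kept without DMSO replicate 13 (0.97, adjusted p = 0.0882), DMSO replicate 14 (1.10, adjusted p = 0.0631), JQ1 replicate 17 (1.08, adjusted p = 0.0553) or JQ1 replicate 19 (1.03, adjusted p = 0.0655). Like LHX1, SOX15 entered the test mainly through the JQ1 libraries, reaching 10 in 3 of them, 1 I-BET 762 library and 0 DMSO libraries.

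By SOX group, neither tested SOXE gene was called against DMSO. SOX9, the cartilage and gonad regulator, was at 0.39 and -0.12, and SOX8 at 0.51 and -0.24. SOX12 of the SOXC group was at -0.42 with JQ1 and 0.00 with I-BET 762, SOX6 (SOXD) at -0.81 and -0.35, and SOX7 (SOXF) at -0.51 and -0.18. No SOXB1, SOXB2 or SOXH symbol passed the filter, and each of these groups summed to at most 4.35 normalized counts in any library. SOX1, SOX3 and SOX11 were not analysed here.

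JQ1 and I-BET 762 were given at the same dose and for the same time, so their libraries were compared directly, as 1 pair of compounds. Of the 56 tested members, 5 were called higher with JQ1 than with I-BET 762 and 4 lower, where 1.73% and 3.59% of all tested symbols were called, and the median log2 difference (JQ1 minus I-BET 762) was 0.06 over the members and 0 over all tested symbols. Lower with JQ1 were PAX8 (log2 difference -1.2, SE 0.24, adjusted p = 0.00173), FOXP2 (log2 difference -0.90, SE 0.06, adjusted p = 6.24e-08), LHX6 (log2 difference -0.86, SE 0.24, adjusted p = 0.0143) and FOXM1 (log2 difference -0.64, SE 0.07, adjusted p = 1.69e-05). Each of these 4 was called lower than DMSO with both compounds. The JQ1 and I-BET 762 libraries of these 4 did not overlap. The FOXM1 call was lost without JQ1 replicate 17 (-0.58, adjusted p = 3.93e-05), by size alone, and the LHX6 call without I-BET 762 replicate 22 (-0.82, adjusted p = 0.0552) or replicate 23 (-0.79, adjusted p = 0.0637).

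Higher with JQ1 were LHX1 (log2 difference 1.75, SE 0.47, adjusted p = 0.0127), TBX21 (log2 difference 1.16, SE 0.22, adjusted p = 0.00123), SOX8 (log2 difference 0.75, SE 0.17, adjusted p = 0.0040), GATA2 (log2 difference 0.64, SE 0.10, adjusted p = 0.000404) and FOXE1 (log2 difference 0.62, SE 0.20, adjusted p = 0.0283). SOX8, a neural crest and gonad SOXE factor, was called in this comparison only, with 86.2, 95.2 and 106 in the DMSO libraries, 153, 106, 168 and 129 with JQ1 and 92.5, 66.2 and 85.6 with I-BET 762, so that JQ1 and I-BET 762 libraries stood apart while the DMSO libraries lay between or among them. Among omissions of single libraries, the number of higher calls ran from 3 without I-BET 762 replicate 21 or 22 to 8 without JQ1 replicate 18. LHX1 was lost without I-BET 762 replicate 21 (1.34, adjusted p = 0.0752) or replicate 23 (1.55, adjusted p = 0.0593), GATA2 without I-BET 762 replicate 22 (0.56) and with equal totals (0.55), and FOXE1 in 5 of the 7 omissions of a JQ1 or I-BET 762 library. Since LHX1 passed the filter mainly through the JQ1 libraries, its p-value here adds no separate support either.

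FOXD1, a stromal factor of kidney and an early marker of mesenchyme, lay just outside the threshold and was on opposite sides of DMSO with the compounds. It had 286, 288 and 287 in the DMSO libraries, 408, 298, 329 and 375 with JQ1 and 221, 221 and 259.9 with I-BET 762. The JQ1 libraries all exceeded the DMSO libraries (log2 fold change 0.29, SE 0.11, adjusted p = 0.0246) and the I-BET 762 libraries all fell short of them (log2 fold change -0.30, SE 0.11, adjusted p = 0.0346), a direct difference of 1.499-fold (log2 difference 0.58, SE 0.11, adjusted p = 0.00097). With equal totals the JQ1 value was 0.10 (adjusted p = 0.457) and the I-BET 762 value -0.39. The other members nearest to the threshold were FOXN3 with JQ1 on the outside (-0.55, and called with equal totals at -0.74) and TBX19 (0.59) and FOXE1 (0.60) with JQ1 on the inside. With I-BET 762 FOXO4 lay nearest on the outside (-0.57, adjusted p = 0.0504), followed by FOXB1 (-0.55, adjusted p = 0.167) and SOX13 (0.54, adjusted p = 1.46e-05), and FOXL2 lay on the inside (-0.67). LHX1 passed the fold but not the p threshold there (0.59).

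For members that changed to like levels with both compounds, the interval of the difference tells how closely. That of SIX4 ran from -0.09 to 0.15 log2 around 0.03, which is narrower than 1.5-fold on both sides. Those of FOXO1 (-0.25 to 0.41), FOXA3 (-0.44 to 0.52), GATA5 (-0.43 to 0.50) and FOXL2NB (-0.42 to 0.09) also lay within 1.5-fold. Wider intervals were found for FOXO6 (-0.69 to 0.69), FOXF2 (-0.07 to 0.96), FOXL1 (-0.95 to 0.05), SIX2 (-0.97 to 0.24), TBX1 (-0.99 to 0.54), FOXJ1 (-1.34 to 0.25), FOXN4 (-2.44 to 0.07) and SIX3 (-2.25 to 0.16), for which a difference past 1.5-fold was not called and is not shown to be absent. Of these, FOXF2 and FOXN4 were called between the inhibitors when JQ1 replicate 18 was left out.

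**Figure D4:**
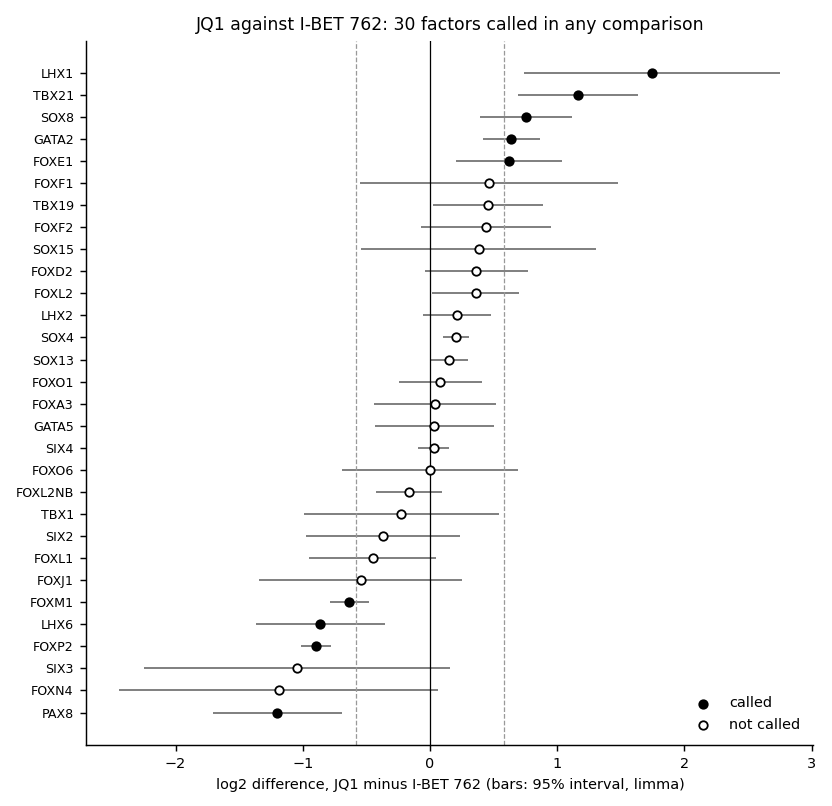
log2 difference between JQ1 and I-BET 762 (positive: higher with JQ1), with 95% intervals from limma, for 30 of the 31 factors called in any of the 3 comparisons. Filled circles were called, and dashed lines mark 1.5-fold. LHX1 lies at 1.75 and PAX8 at -1.2, and SIX4 has an interval of -0.09 to 0.15.

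Of the 56 tested members, 25 were called in none of the comparisons. They were SOX6, SOX7, SOX9, SOX12, FOXB1, FOXD1, FOXD4, FOXD4L1, FOXJ2, FOXJ3, FOXK1, FOXK2, FOXN2, FOXN3, FOXO3, FOXO3B, FOXO4, FOXP4, TBX2, TBX3, PAX3, PAX6, PAX9, SIX5 and GATA4. Their log2 fold changes ran from -0.81 (SOX6) to 0.50 (FOXP4) with JQ1 and from -0.75 (TBX2) to 0.34 (FOXJ3) with I-BET 762. Several abundant members among them had small differences with narrow errors, such as FOXJ3 (log2 fold change 0.43, SE 0.05, adjusted p = 4.16e-07), FOXK2 (log2 fold change 0.30, SE 0.05, adjusted p = 4.44e-05) and FOXO3 (log2 fold change 0.27, SE 0.05, adjusted p = 0.000339) with JQ1. FOXN2 was at 0.17 with JQ1 and turned to -0.01 with equal totals.

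The remaining 46 members were not tested, 8 SOX, 21 FOX, 6 TBX, 4 PAX, 5 LHX and 2 GATA symbols. Of these, 24 had at most 3 reads in every library. A normalized count of 10 was reached in at least 1 library by 7, namely SOX18, FOXA1, FOXC1, FOXD3, FOXP3, PAX1 and LHX4. SOX18, an endothelial factor, lay at 7.4–15.5 in DMSO, 0–11 with JQ1 and 0 to 0.984 with I-BET 762. FOXA1 lay at 0 to 0.969 in DMSO, 1.09–12.1 with JQ1 and 0 to 3.94 with I-BET 762, and its highest value was that of JQ1 replicate 17. The highest library of the others stood at 16.5 for the neural crest factor FOXD3, 11.8 for FOXP3 of regulatory T cells, 12.1 for the pituitary factor LHX4, 11 for FOXC1 and 10 for PAX1.

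The listed partners and targets of the factors were read beside them. FOXM1 targets of mitosis, all 11 tested, had median log2 fold changes of -0.38 with JQ1 and -0.28 with I-BET 762 while FOXM1 itself was at -1.62 and -0.99. With JQ1, 2 of them fell past 1.5-fold, KIF20A (log2 fold change -0.62, SE 0.06, adjusted p = 8.66e-08), a mitotic kinesin, and SKP2 (log2 fold change -0.68, SE 0.05, adjusted p = 3.35e-09), which marks p27 for destruction. These 2 are 18.2% of the list, beside 22.8% of all tested symbols called lower. With I-BET 762, 0 were called by limma and 0 by limma-voom, although 10 had an adjusted p under 0.05. With equal totals 5 fell with JQ1 and 1 with I-BET 762.

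Of 16 FOXO targets, 3 rose and 3 fell with JQ1, and 4 rose and 2 fell with I-BET 762, around medians of -0.01 and -0.04. With JQ1 this is 18.8% of the list in each direction, beside 13.3% higher and 22.8% lower over all tested symbols, and with I-BET 762 25% and 12.5%, beside 8.96% and 17.9%. BCL2L11, which codes for the death factor BIM, rose from 218 ± 20.2 (SD, n = 3) to 604 and 425 normalized counts (log2 fold change 1.46, SE 0.10, adjusted p = 3.41e-09, and log2 fold change 0.96, SE 0.11, adjusted p = 1.84e-06). SESN1, a stress-induced brake on mTOR signalling, rose by 1.11 and 1.14, and TXNIP, an inhibitor of glucose uptake, by 0.90 and 0.68. PIK3IP1, an inhibitor of PI3 kinase, fell with both (-2.74 and -2.13), and the insulin receptor gene INSR (-0.70) and RBL2 (-1.0) fell with JQ1. SESN3 rose (0.59) and FBXO32 fell (-1.38) with I-BET 762. With equal totals the I-BET 762 split of this list was 2 higher and 4 lower and that with JQ1 3 higher and 5 lower.

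**Figure D5:**
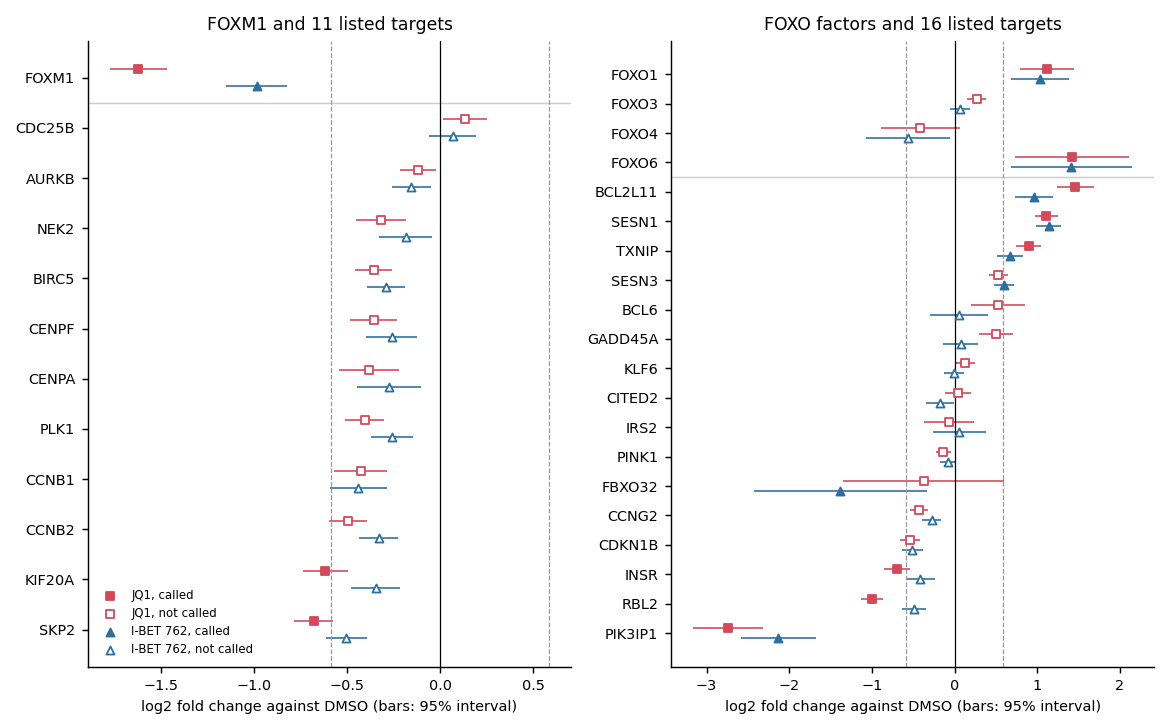
log2 fold change against DMSO, with 95% intervals from limma, of FOXM1 above its 11 listed targets and of the FOXO factors above their 16 listed targets, with JQ1 as squares and I-BET 762 as triangles, filled where called. FOXM1 lies at -1.62 and -0.99 while its targets lie between -0.68 and 0.13, and FOXO targets lie on both sides of 0.

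Of 6 tested cartilage targets of SOX9, COL2A1 rose from 22.7 ± 0.826 (SD, n = 3) to 83.8 and 86.8 (log2 fold change 1.84, SE 0.15, adjusted p = 1.58e-08, and log2 fold change 1.89, SE 0.16, adjusted p = 5.50e-08), and COL9A2 (-1.03 and -0.62), MATN1 (-1.01 and -0.82) and MATN3 (-1.24 and -1.58) fell with both. The list median was -0.72 with JQ1 and -0.52 with I-BET 762, and the 3 lower calls are 50% of the list, beside 22.8% and 17.9% of all tested symbols. The TLE family includes corepressors that forkhead, PAX and SIX-family proteins recruit, though not every member acts in this way. Of its 5 genes, TLE2 (-1.66 and -1.47), TLE4 (-1.29 and -0.81) and TLE5 (-1.66 and -1.38) fell with both and 0 rose by limma or limma-voom. The lower calls are 60.0% of the list, beside 22.8% and 17.9% of all tested symbols, with medians of -1.29 and -0.81. TLE5 alone went from 5298 ± 31.3 (SD, n = 3) to 1676 and 2041 normalized counts. Of 5 tested relatives whose names fall outside the symbol rule, TRPS1, an atypical GATA-type repressor, fell with both (-1.07 and -0.78) and TBR1, a T-box gene of the brain with JQ1 (log2 fold change -1.23, SE 0.52, adjusted p = 0.043) though not by the call rule with I-BET 762 (-0.51), while MGA, ISL2 and LMX1B were not called.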

How the data were processed

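Strand-specific total RNA libraries of SK-UT-1 cells were sequenced on a NovaSeq6000. Per the labels and the study's methods, the authors checked reads with FastQC 0.73, trimmed them with Trimmomatic, aligned them to hg38 with HISAT2 2.2.1, counted them per Gencode V41 gene with featureCounts 2.0.3, normalized with DESeq2 and left out outlier samples. The strand setting of the counting is not given in the sources used here. The deposited values are log2(normalized count + 1), with 22784 symbols in 10 of the 12 labelled libraries. Dividing out the size of 1 read gave whole reads (within 0.02) for 99.74 to 99.77% of values per library, and these reads gave the totals, floors and counting intervals. No replicate pair held identical values.

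Groups followed the labels. All 10 libraries entered 1 limma model (version 3.58.1, R 4.3.3) with an intensity trend and Benjamini-Hochberg adjustment over all 14839 symbols at a normalized count of at least 10 in at least 3 libraries. Fold changes are on the log2(normalized count + 1) scale and understate changes of low genes. The fit was also run on simulated counts whose spread was taken from the DMSO libraries. That simulation does not cover the wider spread between the JQ1 libraries. limma-voom on the recovered reads called 1982 symbols higher and 3414 lower with JQ1, 1330 and 2703 with I-BET 762, and 241 and 498 between the inhibitors, where limma on the log2 values called 1979 and 3379, 1329 and 2662, and 256 and 532.

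The members and all gene lists were chosen with earlier results of these data known. Values by library are given for members called with both inhibitors, up to 6 per family ranked by the smaller change, for members called between the inhibitors, and for the most abundant member per length of each family, and those of FOXD1, FOXD2 and SOX13 were added after they were seen. List genes called with only 1 inhibitor, genes listed as not called and the marker genes shown were chosen after their values were seen. Exon lengths and positions come from Gencode V44 and promoter windows from RefSeq GRCh38.p14. The authors' outlier removal and the choice of scaling can both move the number of calls. Tables were handled in Python 3.11.15 with pandas 2.3.3. The values of 1 member are not reported here.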

Additional observations from a re-analysis of the deposited data

Results flagged for a closer look

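Among the 56 tested members, 3 had a JQ1 library far from the other 3 of its group by Dixon's test at the 95% level, which chance alone does for about 1 in 20 groups of this size. FOXP2 had 1516 normalized counts in JQ1 replicate 18, a gap of 0.876 of the group's range. FOXN4 had 6.53 in the same library, with a gap of 0.832. FOXD2 had 109 in JQ1 replicate 17, with a gap of 0.914, and this is the library in which FOXD2 overlapped the DMSO libraries. The DMSO and I-BET 762 groups, with 3 libraries each, were not tested in this way.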

How the results depend on the processing

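Of 57 calls on members over the 3 comparisons, 44 held in every alternative that tested the member, other than the 2-fold threshold, which dropped 20 calls. The other 13 were lost in at least 1 other alternative, and of 111 uncalled pairs of member and comparison 21 became calls in an alternative that keeps the 1.5-fold threshold, 8 of them with equal totals alone. Leaving out 1 library at a time gave 7 to 10 members higher and 15 to 18 lower with JQ1, 3 higher and 17 to 21 lower with I-BET 762, and 3 to 8 higher and 3 to 5 lower between the inhibitors. Restricting the test to a mean normalized count of at least 100 left 27 members and 3 higher and 4 lower with JQ1, 0 higher and 7 lower with I-BET 762, and 2 higher and 2 lower between them. Of all 11072 symbols so tested, 1445 were called higher and 1914 lower with JQ1. With I-BET 762 these counts were 891 and 1447, and between the inhibitors 154 and 264. Equal totals gave 6 higher and 26 lower with JQ1 and 3 higher between the inhibitors, and FOXN2 turned to -0.0133 with JQ1 (adjusted p = 0.837). Of all 14839 tested symbols, equal totals called 1222 higher and 4217 lower with JQ1 and 172 higher between the inhibitors. Without a fold threshold there were 19 higher and 26 lower with JQ1, 7 higher with I-BET 762, and 10 higher and 8 lower between them. For all 14839 tested symbols these counts were 5344 and 5289 with JQ1, 4434 with I-BET 762, and 1973 and 2074 between them. A 2-fold threshold gave 5 higher with JQ1, 12 lower with I-BET 762, and 2 higher and 1 lower between them. The matching counts over all tested symbols were 793 with JQ1, 1579 with I-BET 762, and 71 and 135 between them. The counts under stricter filters and thresholds are fewer by construction, and the cause of the other shifts was not tested. No paired analysis was possible because the groups share no replicate numbers. With 3 or 4 libraries per group from 1 cell line, and with few reads for FOXN4, SIX3, LHX1 and SOX15, depth and replicate number limit the fold changes of the low members. The number of members higher with JQ1 than with I-BET 762 moved with single libraries, to 3 without I-BET 762 replicate 21 or 22 and to 8 without JQ1 replicate 18.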

Other observations

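Antisense transcripts of the same loci had been set aside by the naming rule. PAX8-AS1 had 245, 248 and 235 normalized counts in DMSO, 44, 55.5, 54.0 and 62.9 with JQ1 and 57.1, 55.1 and 66.9 with I-BET 762. FOXP4-AS1 and FOXN3-AS1 were called lower with both inhibitors (-3.94 and -3.23 log2, and -3.06 and -1.73), while FOXP4 and FOXN3 themselves were not called in the same comparisons. FOXP4 lay above DMSO (0.50 with JQ1 and 0.22 with I-BET 762) and FOXN3 under it (-0.55 and -0.24). With equal totals FOXN3 was called lower with JQ1. The counting's use of strand is not given in the sources used here. Reads from stretches shared by a gene and its antisense partner therefore cannot be told apart, and the share of such reads was not tested.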
